A study of Mus musculus with 8 samples.

Results

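The cell cycle genes described here are 36 genes, listed by name, whose products copy DNA, divide the chromosomes or start the cycle. They comprised 13 S phase genes, 21 mitosis genes and 2 G1 cyclins, Ccnd1 and Ccnd2. A gene was measured through every probe set whose annotation names it alone, and 35 of the 36 had at least 1, out of 18194 genes named in this way on the array. Ccnb1, the main mitotic B-type cyclin, had none. The 35 genes had 86 probe sets, of which 69, from 34 genes, passed a filter on low signals. All 4 probe sets of Tyms, the enzyme that makes thymidylate for DNA synthesis, lay below that filter.

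Mouse RNA was hybridised to 8 Affymetrix expression arrays, 4 labelled Ctrl and 4 labelled Exp. The tissue is labelled trigeminal ganglion in the description, while the source name lists brain together with adrenal medulla. The labels do not say what set Exp apart from Ctrl: no genotype, treatment, strain, age or sex is stated. Each group is numbered 1 to 4, with an abbreviation before the number that is not explained. As the labels do not say that the arrays came from separate animals, p-values cover no more than the spread from array to array, some of which may be technical.

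Dividing cells switch on their cell cycle genes in waves. Before S phase, E2F factors are released from the Rb protein and drive genes for origin licensing, nucleotide supply and the replication fork. Before mitosis, the MuvB complex, with B-Myb and then FoxM1, drives genes for chromosome condensation, the spindle, its checkpoint and cytokinesis, often through a promoter element known as the CHR beside CCAAT boxes bound by NF-Y. In a sensory ganglion the neurons themselves have left the cycle, and dividing cells belong to neural crest and glial progenitors, Schwann and satellite cell precursors and the non-neural tissue around them. The arrays measured bulk RNA, in which fewer dividing cells and less RNA per dividing cell cannot be told apart.

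Promoter sequences show how the S phase and mitosis groups differ in a property the expression values did not use. RefSeq promoters of build GRCm38.p6, from 250 bases before to 50 bases after a gene's start, were found for 27 of the 36 genes, 28 promoters in all. Aurkb, Ccna2, Ccnd1, Ccnd2, Ccne2, Foxm1, Kif20a, Mcm4 and Tpx2 were not matched. The sequences below are those of the genes with the smallest p in each group among the genes whose promoter holds the letters of its group. Letters of 3 kinds were searched on both strands: E2F letters (TTCGCGC or TTGGCGC), CHR letters (TTTGAA or TTCGAA) and CCAAT. The second form of the CHR letters reads the same on both strands, and E2F letters on opposite strands can overlap in 1 stretch. For the helicase subunits Mcm6 (chr1:128359656-128359955, minus strand), Mcm3 (chr1:20820263-20820562, minus strand) and Mcm5 (chr8:75109259-75109558, plus strand), capitals mark E2F letters:
Mcm6: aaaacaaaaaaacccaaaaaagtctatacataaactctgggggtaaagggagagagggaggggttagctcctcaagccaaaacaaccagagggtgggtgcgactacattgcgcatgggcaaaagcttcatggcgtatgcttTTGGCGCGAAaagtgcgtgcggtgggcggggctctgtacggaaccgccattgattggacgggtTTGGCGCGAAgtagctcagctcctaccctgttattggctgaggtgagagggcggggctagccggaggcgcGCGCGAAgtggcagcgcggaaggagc
Mcm3: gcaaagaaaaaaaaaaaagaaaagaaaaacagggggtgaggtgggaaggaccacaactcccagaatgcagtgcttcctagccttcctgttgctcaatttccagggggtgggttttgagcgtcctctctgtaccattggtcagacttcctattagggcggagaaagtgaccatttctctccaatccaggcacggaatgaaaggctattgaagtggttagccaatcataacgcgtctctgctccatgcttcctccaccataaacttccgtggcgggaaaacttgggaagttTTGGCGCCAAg
Mcm5: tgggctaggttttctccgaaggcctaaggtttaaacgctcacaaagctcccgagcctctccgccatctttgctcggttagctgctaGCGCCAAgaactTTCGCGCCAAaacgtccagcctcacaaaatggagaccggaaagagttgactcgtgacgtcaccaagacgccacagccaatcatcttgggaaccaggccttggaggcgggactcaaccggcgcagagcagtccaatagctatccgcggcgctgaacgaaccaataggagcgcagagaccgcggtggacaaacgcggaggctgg

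For the spindle kinase Aurka (chr2:172370521-172370820, minus strand), the checkpoint kinase Bub1 (chr2:127831810-127832109, minus strand) and the B-type cyclin Ccnb2 (chr9:70421505-70421804, minus strand), capitals mark CHR letters and CCAAT:
Aurka: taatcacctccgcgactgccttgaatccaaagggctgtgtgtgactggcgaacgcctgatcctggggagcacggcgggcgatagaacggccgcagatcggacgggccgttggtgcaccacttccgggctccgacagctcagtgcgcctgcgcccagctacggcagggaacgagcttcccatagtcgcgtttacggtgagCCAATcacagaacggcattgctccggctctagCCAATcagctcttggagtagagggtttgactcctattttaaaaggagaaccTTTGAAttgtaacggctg
Bub1: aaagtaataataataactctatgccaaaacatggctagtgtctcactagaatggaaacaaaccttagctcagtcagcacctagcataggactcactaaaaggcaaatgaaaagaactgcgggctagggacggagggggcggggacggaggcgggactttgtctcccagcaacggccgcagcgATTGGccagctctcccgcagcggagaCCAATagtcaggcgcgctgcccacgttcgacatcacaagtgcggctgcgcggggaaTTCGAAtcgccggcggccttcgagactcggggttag
Ccnb2: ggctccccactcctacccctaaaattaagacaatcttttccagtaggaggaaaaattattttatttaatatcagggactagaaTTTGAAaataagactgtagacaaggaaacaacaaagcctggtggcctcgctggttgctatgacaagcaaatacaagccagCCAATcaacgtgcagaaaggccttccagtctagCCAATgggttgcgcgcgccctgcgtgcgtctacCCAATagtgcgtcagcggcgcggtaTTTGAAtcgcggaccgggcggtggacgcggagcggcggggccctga

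CHR letters stood in 12 of 16 mitosis promoters (75%), in 2 of 12 S phase promoters (16.67%) and in 19.23% of all 32851 promoters of the same length. All 12 of these mitosis promoters also held CCAAT, a pairing found in 7.525% of all promoters. The mitosis promoters without CHR letters were those of Birc5, Ccnb1, Cenpe and Nusap1. E2F letters stood in 4 of 12 S phase promoters (33.33%), in 3 of 16 mitosis promoters (18.75%) and in 3.887% of all promoters. CCAAT stood in 9 of 12 S phase promoters (75%) and 14 of 16 mitosis promoters (87.5%), against 37.41% of all. The CHR letters nearest to the start lay within 50 bases of it in 11 of the 12 mitosis promoters, the exception being Mki67 at position -98 from the start, and in 27.6% of all promoters that hold the letters. In the printed sequences, the nearest began 33 bases after the start of Aurka, 15 after that of Bub1 and 5 after that of Ccnb2. The matches describe letters only and do not show that a factor binds there.

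**Figure D1:**
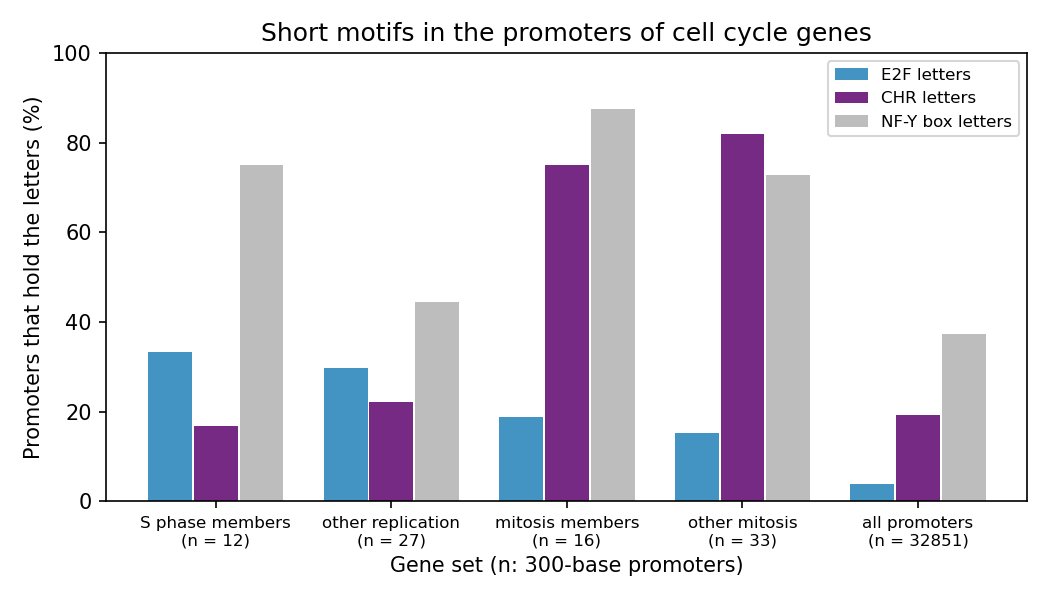
Bars give the share of promoters (percent) that hold E2F letters, CHR letters or CCAAT (the NF-Y box letters) among S phase members, other replication genes, mitosis members, other mitosis genes and all promoters, with the number of promoters under each set. CHR letters stand in 75% of mitosis and 81.82% of other mitosis promoters, against 16.67% of S phase, 22.22% of other replication and 19.23% of all promoters.

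No tested probe set of a cell cycle gene passed the threshold for a difference between Exp and Ctrl. Levels are given as log2(signal + 16) after quantile normalization, differences as Exp minus Ctrl on that scale with the standard error from limma, and folds are on that scale as well. A probe set was called at a Benjamini-Hochberg adjusted p under 0.05 in limma over all 27022 tested probe sets. None of the 69 probe sets was called, and the smallest adjusted p was 0.999. Over all tested probe sets 1 was called, 0.0037%. At an unadjusted p under 0.05 the count was again 0 of 69, against 4.69% of all tested probe sets, and the smallest p was 0.0646, for Aurka. Exp was higher in 33 of the 69 and lower in 36. The Exp and Ctrl arrays did not overlap in 1 of the 69, the Aurka probe set, against 2.33% of all tested.

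The data also bound the size of the differences. By the brightest probe set of each gene, the 34 differences ran from -0.34 for Ccnd1 to 0.32 for Top2a, folds of 0.789 to 1.25, and 22 of the 34 were under 0.1 in size. The 95% confidence intervals ran from a fold of 0.569 at the lowest to 1.89 at the highest, so each of the 34 brightest probe sets excluded a 2-fold change in either direction. Dimmer tested probe sets of Foxm1 (-1.48 to 0.54 in log2) and Bub1b (-0.83 to 1.01) did not. For 26 of the 34 the interval lay within 1.5-fold either way, as it did for 65.95% of all tested probe sets. The median standard error was 0.155 for the 69 probe sets and 0.154 for all tested. These intervals are for single genes and do not show that the groups were alike. Some brightest probe sets lay far above the gene's other tested ones. In Ctrl means these were Ccne1 (12.18 against 9.66) and Rrm2 (12.98 against 8.91 and 10.61), for example. Whether a probe set also reads other transcripts was not tested.

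**Figure D2:**
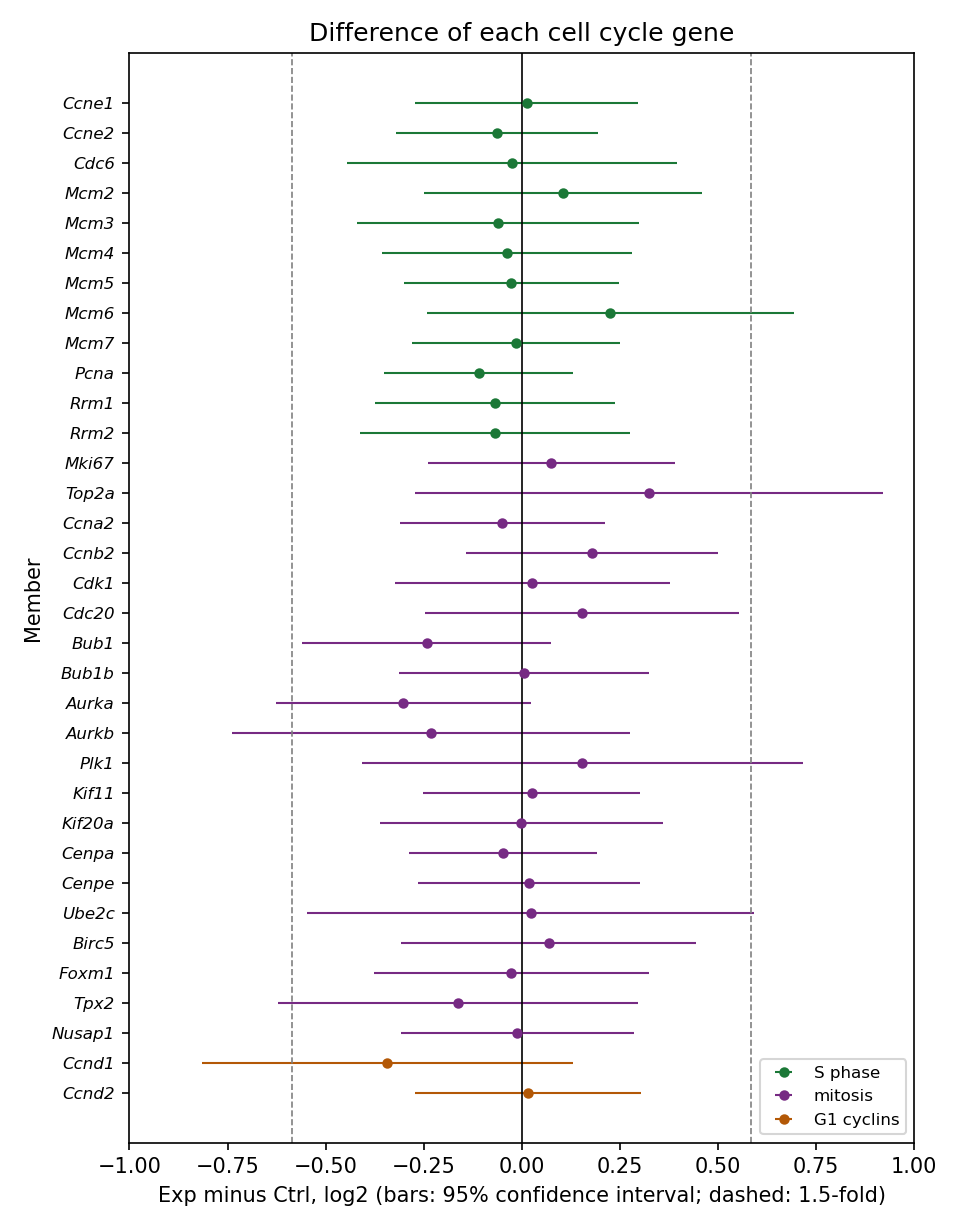
Exp minus Ctrl difference (log2) of each tested member by its brightest probe set, with its 95% confidence interval as a bar and dashed lines at 1.5-fold, coloured by role. The differences run from -0.34 to 0.32, and all 34 intervals include 0 and stay inside a 2-fold change.

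The 12 tested S phase genes lay close to 0. Exp was higher in 3 and lower in 9, with a median difference of -0.03 and a range of -0.11 to 0.23, where the median over all tested probe sets was -0.01. For 11 of the 12 the interval lay within 1.5-fold. Pcna, the sliding clamp of the replication fork, read 14.10, 14.15, 13.88 and 14.14 on Ctrl 1 to 4 and 14.11, 13.92, 13.99 and 13.83 on Exp 1 to 4. The groups overlapped, with the lowest value on Exp 4. Their means were 14.07 ± 0.12 and 13.96 ± 0.12 (SD, n = 4 each), a difference of -0.11 (SE 0.11, fold 0.927, 95% interval 0.784 to 1.10).

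Mcm6, a subunit of the MCM helicase that unwinds DNA at the fork, had the largest S phase difference. It read 13.23, 14.06, 13.48 and 13.13 on Ctrl 1 to 4 and 13.81, 13.88, 13.69 and 13.43 on Exp 1 to 4. Ctrl 2 was the highest of the 8 arrays and Ctrl 4 the lowest, so the Ctrl arrays spanned the whole Exp range. The difference was 0.23 (SE 0.21, fold 1.17, 95% interval 0.846 to 1.62), and a second tested probe set of Mcm6 gave -0.02. Mcm2 of the same helicase read 11.54, 11.15, 11.83 and 11.83 on Ctrl 1 to 4 and 11.72, 11.71, 11.71 and 11.63 on Exp 1 to 4. The Exp arrays of Mcm2 lay close together, inside the wider Ctrl range, and the difference was 0.10 (SE 0.16). The other tested Mcm2 probe set gave -0.12 (SE 0.14), so the direction for Mcm2 is not settled. The other helicase subunits gave -0.06 for Mcm3, -0.04 for Mcm4, -0.03 for Mcm5 and -0.01 for Mcm7, with standard errors of 0.12 to 0.16. The other tested probe set of Mcm5 gave 0.07 (SE 0.20), and those of Mcm7 ran from -0.18 (SE 0.19) to 0.01 (SE 0.15).

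Cdc6, which loads the helicase onto origins, read 9.11, 9.03, 9.50 and 9.59 on Ctrl 1 to 4 and 9.34, 9.67, 9.13 and 8.99 on Exp 1 to 4. The groups overlapped almost entirely, with a difference of -0.03 (SE 0.19). The E-type cyclins that activate Cdk2 at the entry to S phase differed by 0.01 (SE 0.13) for Ccne1, whose other tested probe set gave -0.10 (SE 0.14), and by -0.06 (SE 0.11) for Ccne2. The ribonucleotide reductase subunits that make deoxynucleotides differed by -0.07 (SE 0.13) for the large subunit Rrm1 and -0.07 (SE 0.15) for the small subunit Rrm2. Rrm2 was lowest on Exp 4, at 12.57, and highest on Exp 1, at 13.22. The brightest Tyms probe set, below the filter, read 8.18 to 8.74 on the Ctrl arrays and 7.66 to 8.67 on the Exp arrays. It differed by -0.27 (SE 0.23) in a fit without the filter. The dimmer Tyms probe sets gave -0.58 (SE 0.67), 1.08 (SE 0.59) and -0.41 (SE 0.32) in that fit, so the direction for Tyms is not settled.

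**Figure D3:**
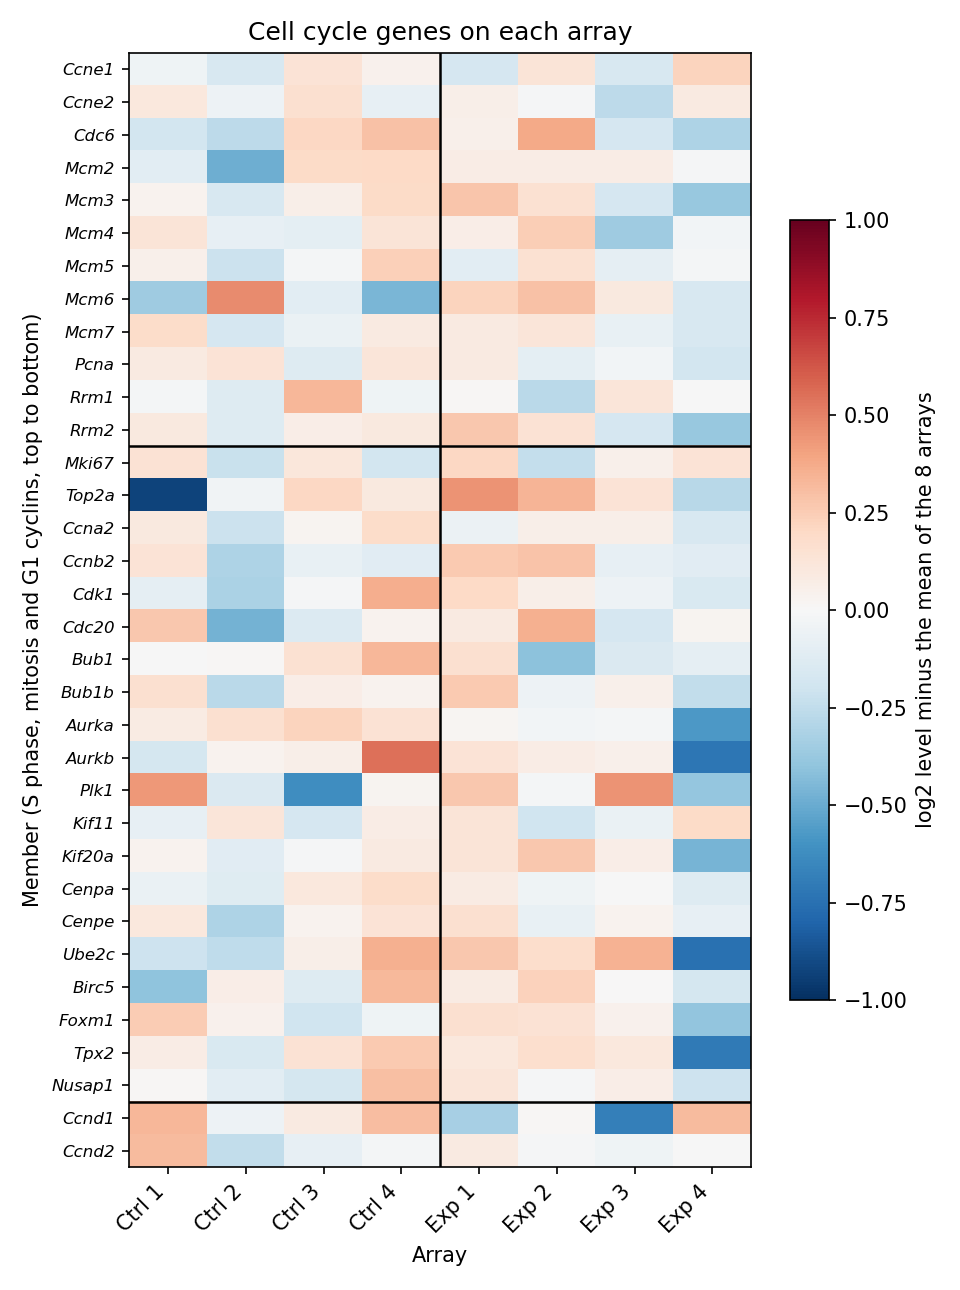
Colour gives the level of each tested member (rows) on each array (columns) as its log2 level minus its own mean over the 8 arrays, with S phase genes above, mitosis genes in the middle and G1 cyclins below. Exp 4 is blue in Aurka, Aurkb, Ube2c and Tpx2, and Ctrl 1 is blue in Top2a, at a level of 12.55.

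The 20 tested mitosis genes were spread more widely, still with no call. Exp was higher in 11 and lower in 9, with a median of 0.01 and a range of -0.30 to 0.32, and for 14 of the 20 the interval lay within 1.5-fold. Mki67, which coats mitotic chromosomes and is the usual marker of proliferating cells, read 14.31, 13.94, 14.28 and 13.98 on Ctrl 1 to 4 and 14.37, 13.93, 14.22 and 14.30 on Exp 1 to 4. Both groups held high and low arrays, and the means of 14.13 ± 0.19 and 14.21 ± 0.20 (SD, n = 4 each) differed by 0.08 (SE 0.14, fold 1.05, 95% interval 0.847 to 1.31). Top2a, the topoisomerase that untangles sister chromatids, read 12.55, 13.44, 13.68 and 13.57 on Ctrl 1 to 4 and 13.93, 13.81, 13.61 and 13.19 on Exp 1 to 4. Ctrl 1 was the lowest array and the other Ctrl arrays lay within the Exp range. The difference was 0.32 (SE 0.26, fold 1.25, 95% interval 0.828 to 1.89), and leaving out 1 array at a time gave 0.07 without Ctrl 1 and 0.47 without Exp 4.

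Among the mitotic cyclins and their kinase, Ccnb2 read 11.43, 10.98, 11.22 and 11.17 on Ctrl 1 to 4 and 11.55, 11.58, 11.21 and 11.17 on Exp 1 to 4. Exp 1 and Exp 2 lay above all Ctrl arrays and the other Exp arrays among them, for a difference of 0.18 (SE 0.14, fold 1.13). Ccna2, the A-type cyclin of S phase and early mitosis, differed by -0.05 (SE 0.12), and Cdk1, the kinase that these cyclins activate, by 0.03 (SE 0.15). Foxm1, the factor that drives late mitotic genes, differed by -0.03 (SE 0.15) in its brightest probe set. A second tested Foxm1 probe set read 7.20 on Exp 3, 7.70 on Exp 1 and 8.51 to 9.39 on the other arrays, and gave -0.47 (SE 0.45) with a 95% interval of -1.48 to 0.54 in log2, which does not exclude a 2-fold change. The values of this second probe set on Exp 1 and Exp 3 lay below the filter level of 8.45. The mean of both Foxm1 probe sets was -0.25.

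By their brightest probe sets, the Aurora kinases and Bub1 had the lowest mitosis differences. Aurka, which matures the spindle poles, read 9.85, 9.93, 9.997 and 9.91 on Ctrl 1 to 4 and 9.79, 9.74, 9.75 and 9.20 on Exp 1 to 4. Every Ctrl array lay above every Exp array and Exp 4 lay far below the other Exp arrays. The difference was -0.30 (SE 0.14, fold 0.811, 95% interval 0.648 to 1.02, limma adjusted p = 0.999), and -0.16 (SE 0.09) without Exp 4. Aurkb, the kinase of the chromosomal passenger complex, read 9.40, 9.61, 9.64 and 10.13 on Ctrl 1 to 4 and 9.72, 9.65, 9.63 and 8.86 on Exp 1 to 4. The Aurkb groups overlapped, with Ctrl 4 the highest array and Exp 4 the lowest, and the difference of -0.23 (SE 0.22) became -0.03 (SE 0.17) without Exp 4. The other tested Aurkb probe set gave 0.05 (SE 0.16), with Exp 1 the highest array and Exp 2 the lowest. Birc5, the survivin subunit of the same complex, differed by 0.07 (SE 0.17).

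The checkpoint kinase Bub1 read 10.53, 10.55, 10.69 and 10.87 on Ctrl 1 to 4 and 10.70, 10.13, 10.39 and 10.44 on Exp 1 to 4. Exp 1 lay among the Ctrl arrays and the other Exp arrays below them. The difference was -0.24 (SE 0.14, fold 0.845), and the other tested Bub1 probe set gave 0.07. Its relative Bub1b differed by 0.01 (SE 0.14), and by -0.04 (SE 0.16) and 0.09 (SE 0.41) in its other tested probe sets. Cdc20 and Ube2c, an activator and the E2 enzyme of the anaphase-promoting complex, differed by 0.15 (SE 0.18) and 0.02 (SE 0.25). Ube2c read 9.57 on Exp 4 and 10.49 to 10.66 on the other Exp arrays, and its difference was 0.28 (SE 0.16) without Exp 4.

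The spindle genes gave no common direction. Plk1, the kinase that drives mitotic entry and spindle assembly, read 9.08, 8.50, 8.02 and 8.67 on Ctrl 1 to 4 and 8.92, 8.62, 9.10 and 8.26 on Exp 1 to 4, a difference of 0.15 (SE 0.25) between overlapping groups. Tpx2, which activates Aurora A on the spindle, read 10.27, 10.04, 10.34 and 10.45 on Ctrl 1 to 4 and 10.30, 10.36, 10.30 and 9.49 on Exp 1 to 4. The difference in this brightest probe set was -0.16 (SE 0.20) with all arrays and 0.05 (SE 0.12) without Exp 4, its single low array. The other 3 tested Tpx2 probe sets gave 0.13 (SE 0.15), 0.17 (SE 0.16) and 0.04 (SE 0.22). Exp 4 was the lowest array in none of these and the highest, at 10.40, in the probe set that gave 0.17, so neither the direction nor the low Exp 4 holds over the Tpx2 probe sets. The motor Kif11 differed by 0.02 (SE 0.12), and by -0.14 (SE 0.16) and -0.02 (SE 0.15) in its other tested probe sets. The motor Kif20a differed by 0.00 (SE 0.16), the centromere proteins Cenpa and Cenpe by -0.05 (SE 0.11) and 0.02 (SE 0.12), and the spindle protein Nusap1 by -0.01 (SE 0.13).

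**Figure D4:**
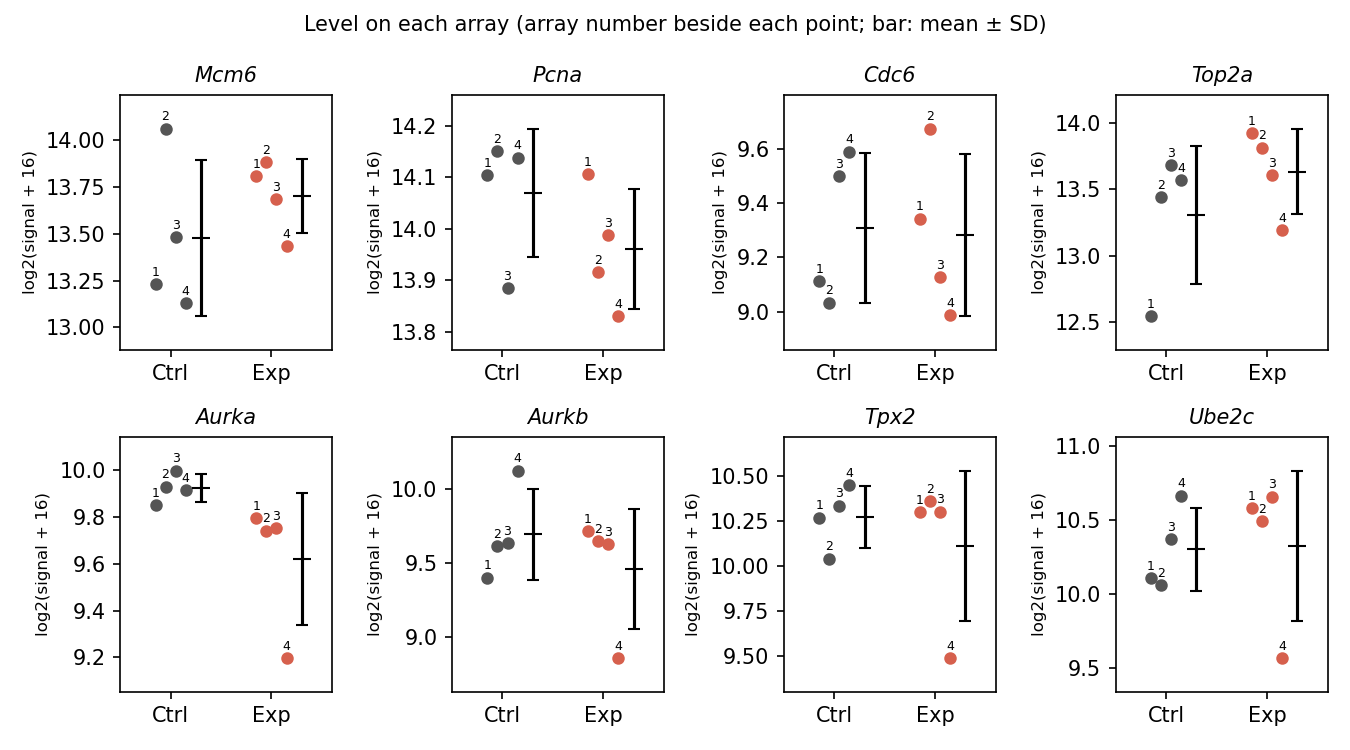
Points give the log2(signal + 16) level of Mcm6, Pcna, Cdc6, Top2a, Aurka, Aurkb, Tpx2 and Ube2c on each array, numbered by array, with the mean ± SD of each group (n = 4) beside them; each panel has its own axis. Exp 4 lies below the other Exp arrays in Aurka at 9.20, Aurkb at 8.86, Tpx2 at 9.49 and Ube2c at 9.57.

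The G1 cyclins pair with Cdk4 and Cdk6 to phosphorylate Rb. The brightest Ccnd1 probe set read 12.68, 12.30, 12.44 and 12.66 on Ctrl 1 to 4 and 12.02, 12.36, 11.67 and 12.66 on Exp 1 to 4. Exp 1 and Exp 3 lay below all Ctrl arrays and Exp 2 and Exp 4 among them, and the difference was -0.34 (SE 0.21, fold 0.789, 95% interval 0.569 to 1.09, limma adjusted p = 0.999). The other tested Ccnd1 probe sets gave 0.23 (SE 0.23) and 0.21 (SE 0.20), so the direction for Ccnd1 is not settled. Without Exp 4 the brightest gave -0.51 (SE 0.18). Ccnd2 differed by 0.02 (SE 0.13) in its brightest probe set and from -0.30 to 0.16 over its 6 tested ones.

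Different probe sets of a gene often disagreed in sign. Of the 22 genes with at least 2 tested probe sets, 13 had differences of both signs, and Ccnd1 alone spanned over 0.5. Mcm3 gave -0.06, 0.19 and 0.39 in its 3 tested probe sets. Among the 17 probe sets below the filter, 2 had an unadjusted p under 0.05 in a fit without the filter, and they are named because of these values. The share of all probe sets below the filter that reached such a p was not counted, so 2 of 17 cannot be judged against it. A Cdc20 probe set read 6.48 to 7.39 on the Ctrl arrays and 7.24 to 8.72 on the Exp arrays, a difference of 1.32 (SE 0.36) with a limma adjusted p of 0.997. A Mcm3 probe set read 4.88 to 5.52 on Ctrl and 5.53 to 6.45 on Exp, a difference of 0.81 (SE 0.24) with the same adjusted p. The tested probe sets of Cdc20, at 0.15 and 0.08, did not show a difference of that size.

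Other genes of the cycle gave no call either. Of 95 further listed genes 88 were tested; Exp was higher in 36 and lower in 52, none was called by limma at an adjusted p under 0.05, and 6 of 88 had an unadjusted p under 0.05, where the share over all tested probe sets was 4.69%. The genes named from these lists are those with the smallest p in each. Among 24 other replication genes, 10 were higher and 14 lower in Exp, with a median of -0.01. The smallest p belonged to Orc1, the largest subunit of the origin recognition complex, which read 8.33 to 8.88 on Ctrl and 8.69 to 9.32 on Exp, a difference of 0.49 (SE 0.17, limma adjusted p = 0.999). Next came Pola1, the catalytic subunit of the primase-polymerase, at 0.24 (SE 0.18), and the histone mRNA-binding protein Slbp at -0.14 (SE 0.11).

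Among 34 other mitosis genes, 14 were higher and 20 lower in Exp, with a median of -0.03. Racgap1, a cytokinesis regulator, read 11.92 to 12.21 on Ctrl and 11.28 to 11.88 on Exp. These ranges did not overlap, and the difference was -0.38 (SE 0.14, limma adjusted p = 0.999). The motor Kifc1 differed by -0.42 (SE 0.16) and the securin Pttg1 by -0.30 (SE 0.13), both with overlapping groups. Kifc1 read 8.37 to 9.10 on Ctrl and 8.23 to 8.41 on Exp. Every Exp array and Ctrl 2 lay below the filter level of 8.45, which was applied to the mean over all arrays. The size of the Kifc1 difference thus rests on signals near the filter. Of 9 other cyclins and kinases, 3 were higher and 6 lower, with a median of -0.03. Differences were 0.11 for Cdk7, 0.11 for Wee1 and -0.10 for Ccnd3. With the probe sets of Cdk7 averaged, its difference was -0.06 (SE 0.09), so the direction for Cdk7 is not settled.

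Of 7 CDK inhibitors 5 were tested, of which 1 was higher and 4 lower, with a median of -0.11. Cdkn1c, the p57 inhibitor of cyclin-dependent kinases, differed by 0.33 (SE 0.14), Cdkn2d by -0.14 and Cdkn2c by -0.11. Of 18 genes of the Rb, E2F and MuvB group 16 were tested, with 8 higher, 8 lower and a median of 0.02. The atypical E2F repressor E2f8 differed by 0.32 (SE 0.13), the activator E2f3 by 0.20 (SE 0.12) and the MuvB subunit Lin52 by 0.19 (SE 0.09), the last with groups that did not overlap.

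The means of the S phase and mitosis genes, by their brightest probe sets, varied more from array to array within a group than between the groups. As the mean deviation of the 20 mitosis genes from their own average over all arrays, Ctrl 1 to 4 gave -0.01, -0.13, -0.02 and 0.16, and Exp 1 to 4 gave 0.16, 0.05, 0.05 and -0.26. Ctrl 4 and Exp 1 were high, Ctrl 2 was low and Exp 4 was the lowest. The 12 S phase genes gave 0.00, -0.10, 0.06 and 0.07 on Ctrl and 0.08, 0.11, -0.10 and -0.11 on Exp, with Exp 4 again the lowest. Exp 4 was the lowest of the 8 arrays in 8 of 20 mitosis genes, 4 of 12 S phase genes, 10 of 24 other replication genes and 8 of 34 other mitosis genes, against 15.8% of all tested probe sets. Ctrl 2 was the lowest in 6 of 20 mitosis genes, 3 of 12 S phase genes, 4 of 24 other replication genes and 13 of 34 other mitosis genes, against 12.9% of all tested. In the other mitosis genes Ctrl 2 was thus the lowest array more often than Exp 4, and their mean was -0.17 on Ctrl 2 and -0.10 on Exp 4. Ctrl 4 was the highest in 9 of 20 mitosis genes, against 14.0% of all tested. Without Exp 4 the mitosis genes had a median difference of 0.07 with 14 higher and 6 lower in Exp. The S phase genes then had a median of 0.01 with 6 of 12 higher, and none was called. Without Ctrl 2, also low, the medians were -0.05 for mitosis and -0.09 for S phase genes. Leaving out an array picked for being low moves the difference by construction, so these shifts are no evidence. The same holds for Aurka, Aurkb, Tpx2 and Ube2c without Exp 4.

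**Figure D5:**
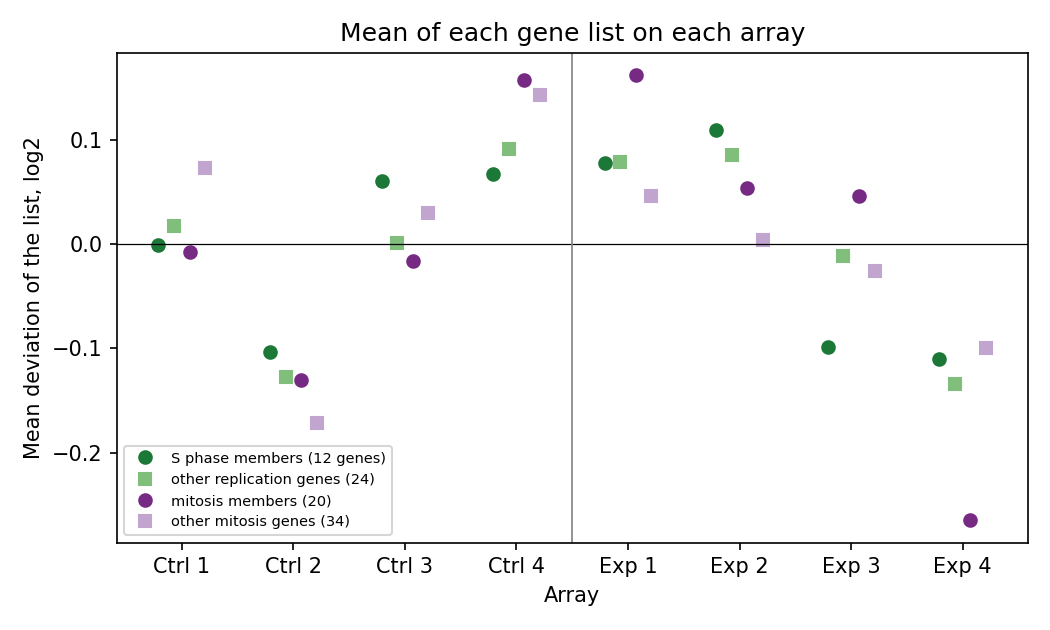
Points give the mean deviation (log2) of S phase members, mitosis members, other replication genes and other mitosis genes from their own average over all arrays, for each array. Exp 4 holds the lowest mitosis member mean, at -0.26, and Ctrl 4 and Exp 1 the highest, at 0.16.

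Markers of other cell types also varied between arrays. The sensory neuron list differed little, with 7 of 10 tested markers higher in Exp, a median of 0.00 and array means from -0.08 to 0.08, and Pou4f1, a defining factor of these neurons, read 16.2 to 16.5 on every array. Where 51.7% of all tested probe sets were lower in Exp, 9 of 10 Schwann and satellite glia markers were, with a median of -0.12. Their means on Ctrl 1 to 4 were 0.13, 0.07, 0.11 and -0.002 and on Exp 1 to 4 -0.11, -0.003, -0.16 and -0.05. The groups did not overlap in this mean, although Ctrl 4 and Exp 2 nearly met. How often the mean of such a list separates the groups was not counted, so the separation cannot be judged. The markers were read on the same 8 arrays and are not independent, so 9 of 10 cannot be judged against the 51.7%. None of the glial markers was called by limma at an adjusted p under 0.05. At an unadjusted p under 0.05 there was 1 of 10, against 4.69% of all tested probe sets. The fibroblast and mesenchyme markers were higher in 5 of 8, with a median of 0.03 and array means from -0.19 to 0.15 on Ctrl and -0.31 to 0.51 on Exp. On Exp 4, the array with the lowest mitosis mean, the skeletal muscle mean was -0.86 (the other Exp arrays -0.11 to 1.70, Ctrl -0.44 to -0.27), the epithelial mean -0.50 (-0.08 to 0.64, Ctrl -0.31 to -0.04), the erythroid mean -0.41 (-0.33 to 0.30, Ctrl -0.24 to 0.48) and the endothelial and mural mean 0.37 (-0.37 to 0.12, Ctrl -0.22 to 0.17). These lists had 9 of 10, 6 of 8, 4 of 8 and 6 of 8 markers tested, of which 8, 5, 2 and 2 were higher in Exp. Median differences were 0.70 for skeletal muscle, 0.37 for epithelial, -0.20 for erythroid and -0.16 for endothelial and mural markers. In the same order, 3, 2, 0 and 1 of the tested markers had an unadjusted limma p under 0.05, and none was called. The 1 endothelial and mural marker was Cdh5, at 0.63 (SE 0.10, limma adjusted p = 0.445), opposite in sign to its list median. Macrophage and leukocyte markers were lower in Exp in 5 of 7 (median -0.21; array means -0.06 to 0.24 on Ctrl and -0.25 to 0.08 on Exp). Chromaffin markers, which would mark adrenal medulla, were tested for 5 of 8 and lower in all 5 (median -0.10), with array means from -0.07 to 0.19 on Ctrl and -0.21 to 0.05 on Exp. For central neurons and central glia 6 of 8 markers had no tested probe set, and the other two gave array means from -0.04 to 0.07 on Ctrl and -0.15 to 0.24 on Exp. Xist was high, at 15.1 to 15.6, on Ctrl 3, Exp 1 and Exp 4, where Eif2s3y read 7.13 to 8.68, against 12.3 to 13.5 for Eif2s3y on the other arrays, a split that ran through both groups. The part of these markers and of sex in the array differences was not tested.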

How the data were processed

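RNA from 8 mouse samples (4 Ctrl, 4 Exp, grouped by their titles) was measured on Affymetrix Mouse Genome 430 2.0 arrays. The authors deposited 1 linear intensity per probe set and array, by a summarisation method not given in the sources used here. For every array the mean without the lowest and highest 2% was 2500, and the medians ran from 478 to 553. The number of arrays limits the precision.

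Of 45101 probe sets, 64 controls were left out; 34945 of the others named 1 gene, 932 several and 9160 none, and 34741 were matched to RefSeq by Entrez ID. Values were taken as log2(signal + 16) and quantile-normalized, because array medians differed by up to 0.203. Probe sets whose mean over all arrays lay below the 40th percentile (a log2 level of 8.45) were not tested. Exp minus Ctrl was fitted with limma 3.58.1 in R 4.3.3 (lmFit, eBayes, Benjamini-Hochberg) on all 27022 remaining probe sets. The script was tested on simulated data. Tables and figures used Python 3.11.15, pandas 2.3.3 and matplotlib 3.10.9.

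All members are named, each by its brightest probe set, with others where they disagree in sign or by over 0.5; for other cycle genes, the 3 with the smallest p in each list, and for cell type markers, each list's array means. The members and lists were chosen with earlier results of these data known. Alternatives were another pseudocount, filter, normalization, gene summary, eBayes option, array weights, Eif2s3y as a covariate, a replicate block and leaving out each array.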

Additional observations from a re-analysis of the deposited data

Results flagged for a closer look

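In 6 of 72 groups of 4 arrays, 1 array stood apart from the other 3 by Dixon's criterion, where chance gives about 1 in 20 groups, or 3.6 of 72. Exp 4 was the low array in 5 of them: Mcm2 at 11.63 (the other Exp arrays 11.71 to 11.72), Aurka at 9.20 (9.74 to 9.79), Aurkb at 8.86 (9.63 to 9.72), Ube2c at 9.57 (10.49 to 10.66) and Tpx2 at 9.49 (10.30 to 10.36). These are the brightest probe sets; in the other tested Tpx2 and Aurkb probe sets Exp 4 was not the lowest array. Rrm2 was low on Ctrl 2, at 12.82 (the other Ctrl arrays 13.02 to 13.05). The 72 groups are the same 8 arrays read through many genes and through means of those genes, so they are not independent. The 6 flags therefore cannot be judged against the 3.6.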

How the results depend on the processing

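Of 19 alternatives, 18 were fitted to probe sets, and in these none of the cell cycle probe sets was called by limma, with between 0 and 2 at an unadjusted p under 0.05 and a smallest adjusted p of 0.720. Over all tested probe sets, the count of 1 became 0 with Eif2s3y as a covariate, with the filter at the 60th percentile, with no filter and with the replicate block, and was 0 to 1 when 1 array was left out; the cause was not tested. Same-numbered arrays did not deviate together (r from -0.12 to 0.05, against -0.17 to 0.20 for arrays of different number). This cannot show whether the numbers pair the arrays, which the labels leave unstated. The replicate block called 0 cell cycle probe sets. Of 642 single-gene values, 81 had another sign than the reported one and 2 moved by more than 1 SD, both with a gene's probe sets averaged, where no cell cycle gene was called: Ccnd1 to 0.03 and Mcm3 to 0.18. The mitosis median was -0.05 without Ctrl 2, 0.07 without Exp 4 and -0.03 with each array centred on its median, and leaving out Ctrl 2 put the S phase median at -0.09 and leaving out Exp 3 at 0.01. Neither direction is settled. Low signals carry no detection call, and 17 of the 86 probe sets were too dim to test.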
